A study of Homo sapiens with 5 samples.

Results

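The giant cadherins are the largest members of the cadherin superfamily. Here they comprise the 4 FAT genes (FAT1, FAT2, FAT3 and FAT4), the Dachsous gene DCHS1 and the 3 CELSR genes (CELSR1, CELSR2 and CELSR3). The 8 genes were taken by symbol from a table of 25382 genes, and each had 1 row. They were picked because earlier results from these libraries had shown their levels in weakly and strongly adherent cells. Their differences between those groups are therefore given as a description, and no p-value is printed for them. Whether a member passed the threshold of a fit across all genes is given only as part of that description.

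All samples are MDA-MB-231, a human breast cancer line that lacks hormone receptors and has a mesenchymal character, grown in DMEM with fetal bovine serum. Per the labels, shear stress applied to mixed populations separated the cells by the strength of their adhesion. The weakly adherent group has 3 libraries, dated 6, 12 and 15 March, and the strongly adherent group has 2, dated 6 and 15 March. The study asked how cells of 1 line that differ in adhesion strength differ in their transcripts. No genotype, drug or dose separates the groups, and all libraries come from a single line. A response to the shear cannot be told apart from a difference present before it. Separate cultures are not stated in the labels, so p-values measure only the spread between these libraries, which may be partly technical.

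Each library held 19630386 to 21707459 reads assigned to genes. CPM is the count scaled to an effective library size, taken from genes with enough reads, and 1 read is worth 0.0455 to 0.0511 CPM. The markers of the line were present, with VIM, CD44, AXL, ZEB1 and EGFR at 5630 to 6150 CPM in sum, while ESR1 and PGR had no read. ERBB2 was at 82.8 to 93.9 CPM, and EPCAM and GATA3, which were also listed as low or absent, were at 19.4 to 25.8 and 12.4 to 14.0 CPM. Of 11 markers of other cell types, CD3E and DCN had no read. Summed, the 11 lay at 139 to 156 CPM in strongly and 132 to 146 CPM in weakly adherent libraries, most of it CD68 at 115 to 145 CPM. In such bulk samples, fewer cells with a transcript and less of it per cell cannot be told apart.

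FAT cadherins are very long single-pass membrane proteins with a large array of cadherin repeats outside the cell. FAT4 binds DCHS1 on the neighbouring cell, and this receptor and ligand pair helps to orient cells within a tissue and to restrain growth through the Hippo pathway. The Golgi kinase FJX1 phosphorylates their cadherin repeats and tunes the binding. FAT1 acts at the cell edge and at contacts, where it influences actin, migration and Hippo signalling, and it is often mutated in carcinomas. CELSR proteins, the vertebrate relatives of fly Flamingo, join cadherin repeats to a 7-pass adhesion receptor and bind each other across contacts in planar cell polarity.

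The promoters are shown because the members ranged widely in level, from FAT1, the highest of them, to FAT2, with almost no reads. A link between promoter bases and level was not tested. RefSeq's promoter table (GRCh38.p14) matched 4 of the 8 members, FAT1, FAT2, CELSR2 and CELSR3, with 2 starts for FAT1. FAT3, FAT4, CELSR1 and DCHS1 were not matched. For FAT1, CELSR3 and FAT2 the 250 bases before the start are given 5′ to 3′ on the gene's strand, with CpG dinucleotides in capitals, while the CELSR2 window was only counted. The second FAT1 start listed lies upstream of the first.
FAT1, chr4:186723857-186724106, minus strand: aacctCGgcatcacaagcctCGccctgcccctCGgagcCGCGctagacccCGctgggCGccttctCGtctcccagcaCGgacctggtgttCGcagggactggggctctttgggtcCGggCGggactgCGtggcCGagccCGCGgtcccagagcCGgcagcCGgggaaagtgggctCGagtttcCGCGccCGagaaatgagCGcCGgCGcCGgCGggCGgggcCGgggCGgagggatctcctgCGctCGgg
FAT1 upstream start, chr4:186726697-186726946, minus strand: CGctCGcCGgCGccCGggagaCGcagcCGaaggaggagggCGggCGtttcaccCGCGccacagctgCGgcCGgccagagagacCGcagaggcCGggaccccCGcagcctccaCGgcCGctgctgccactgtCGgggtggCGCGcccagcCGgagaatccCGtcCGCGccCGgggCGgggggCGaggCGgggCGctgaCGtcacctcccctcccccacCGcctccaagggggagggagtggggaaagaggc
CELSR3, chr3:48662887-48663136, minus strand: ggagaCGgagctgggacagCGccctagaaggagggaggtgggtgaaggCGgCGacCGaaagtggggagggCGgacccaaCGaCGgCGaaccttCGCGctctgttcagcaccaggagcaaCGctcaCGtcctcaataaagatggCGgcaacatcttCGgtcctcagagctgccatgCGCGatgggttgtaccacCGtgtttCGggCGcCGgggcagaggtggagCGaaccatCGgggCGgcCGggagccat
FAT2, chr5:151591332-151591581, minus strand: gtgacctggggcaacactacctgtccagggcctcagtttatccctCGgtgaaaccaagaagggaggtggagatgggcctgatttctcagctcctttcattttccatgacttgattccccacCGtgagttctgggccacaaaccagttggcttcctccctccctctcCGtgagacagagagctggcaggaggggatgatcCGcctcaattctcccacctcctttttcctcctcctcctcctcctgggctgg

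Both FAT1 windows held 32 CpG dinucleotides, CELSR3 held 25 and CELSR2 held 23, against 4 in FAT2. The median over 35114 such windows was 11. FAT2 thus had the fewest CpG of the matched members, and 29.3% of all windows had fewer. The bases just after the RefSeq start were sought near the beginning of GENCODE release 29 transcripts of the same gene. Each FAT1 window and the CELSR3 window matched 1 transcript, but the FAT2 and CELSR2 windows matched 0. Whether the FAT2 and CELSR2 windows lie at a start in use was not tested. The letters TGACGTCA, the full cyclic AMP response element and its own reverse complement, stood in the upstream FAT1 window, beginning 56 bases before the start. They occur in 1.65% of all windows and in none of the other 4 windows of members. The letters GGAATG, bound by TEAD factors, were sought on both strands, stood in none of the 5 windows and occur in 11.9% of all windows, so no overlap of the 2 motifs arose. These are matches of letters in a short window and not sites shown to be used.

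The members differed far more from each other than between the groups. Levels of different genes were compared as RPKM, that is, CPM divided by transcript length in kilobases, taking the transcript with the longest coding sequence in GENCODE release 29. FAT1 led with 13.1 ± 1.08 RPKM (SD, n = 2) in strongly and 26.4 ± 0.387 RPKM (SD, n = 3) in weakly adherent cells. Its mean over the 5 libraries exceeded that of 70.8% of tested genes. FAT4 followed at 2.58 ± 0.265 and 4.69 ± 0.713 RPKM, and CELSR2 at 2.18 ± 0.0112 and 2.57 ± 0.0945 RPKM. CELSR1 stood at 1.22 ± 0.0589 and 1.59 ± 0.201 RPKM, and CELSR3 at 0.807 ± 0.106 and 0.872 ± 0.0647 RPKM. FAT3 was at 0.172 ± 0.0232 and 0.151 ± 0.0488 RPKM, and DCHS1 at 0.0583 ± 0.0227 and 0.0612 ± 0.0206 RPKM. FAT2 came last. Within either group, the libraries of genes next to each other in this order did not overlap. FAT1 alone supplied 67.4% and 68.1% of the reads of the 8 genes in the strongly adherent libraries of 6 and 15 March. In weakly adherent cells, on 6, 12 and 15 March, it supplied 75.0%, 75.9% and 72.1%.

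**Figure D1:**
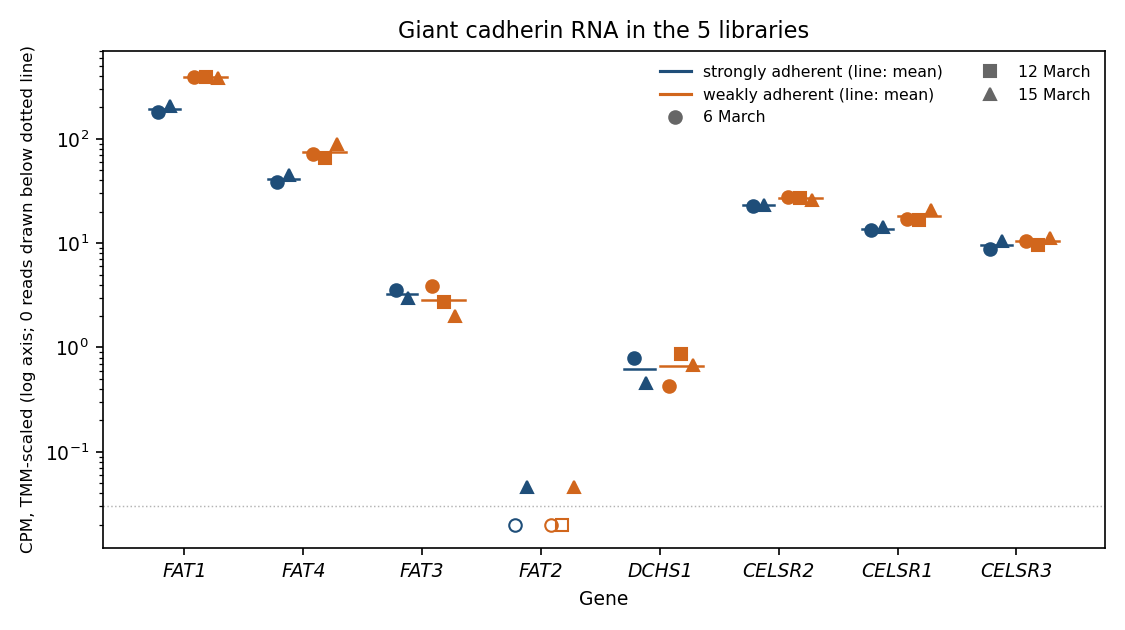
TMM-scaled CPM (log axis) of each giant cadherin in every library, with colour for the group, symbol shape for the date, a line at each group mean and open symbols for 0 reads. FAT1 and FAT4 have all weakly adherent libraries above both strongly adherent ones, while FAT3 and DCHS1 libraries intermingle and FAT2 has 1 read in each of 2 libraries.

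FAT1 and FAT4 were higher in weakly adherent cells, by 2.01-fold and 1.81-fold, CELSR1 and CELSR2 were 1.31-fold and 1.18-fold higher, and CELSR3, DCHS1 and FAT3 lay within the spread of their libraries. CPM were scaled by edgeR's trimmed mean of M values (TMM). Differences are log2 fold changes, weakly minus strongly adherent, from edgeR's quasi-likelihood fit over all 13297 genes with enough reads. A gene is called where its Benjamini-Hochberg (BH) adjusted p is under 0.05. Of the 8 members, 7 had enough reads, and the fit called 2 of them higher (FAT1 and FAT4) and 0 lower, where it called 1.77% of all genes higher and 0.918% lower. DESeq2 also called 2 higher and 0 lower, where it called 301 higher and 138 lower of all 13297 genes. At an unadjusted p under 0.05 edgeR had 4 higher and 0 lower, against 1045 higher and 844 lower of all genes. Of the 7 members, 6 had a log2 fold change above 0, as did 49.8% of all genes, and their median was 0.24 against -0.0005 for all genes. Because results of this contrast guided the choice of members, these counts describe the members and support nothing.

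FAT1 was at 182 and 205 CPM in the strongly adherent libraries of 6 and 15 March and at 396, 389 and 385 CPM in the weakly adherent ones of 6, 12 and 15 March. The weakly adherent libraries lay close together and all well above both strongly adherent ones. The log2 fold change was 1.01 (SE 0.08). Within dates, the weakly adherent library had 2.17 times the FAT1 level of its partner on 6 March (95% interval 2.09 to 2.26) and 1.88 times on 15 March (1.81 to 1.95). These exact intervals, conditional on the sum of both counts, cover counting error only, as sequencing reads are not independent molecules.

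FAT4, the receptor of the DCHS1 pair, was at 38.6 and 44.7 CPM in strongly and at 72.0, 66.3 and 88.5 CPM in weakly adherent cells. The groups did not overlap, and the 15 March library of weakly adherent cells was the highest of all. The log2 fold change was 0.86 (SE 0.13). The ratio was 1.86 on 6 March (95% interval 1.71 to 2.03) and 1.98 on 15 March (1.83 to 2.14). FAT4 was no longer called without the 6 March library of strongly adherent cells, with a log2 fold change of 0.76 (SE 0.15). FAT1 was called whichever library was left out, with log2 fold changes of 0.93 to 1.10.

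FAT3, a paralog best known from neurons of the retina, had 76 and 65 reads in strongly and 81, 54 and 44 reads in weakly adherent libraries. This is 3.58 and 2.95 CPM against 3.85, 2.76 and 2.00 CPM, so the weakly adherent group held both the highest and the lowest library. The log2 fold change was -0.19 (SE 0.26). It was the 1 tested member below 0, but turned to 0.028 without the 15 March library of weakly adherent cells.

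DCHS1, the ligand of FAT4, was barely detected, with 17 and 10 reads in strongly and 9, 17 and 15 reads in weakly adherent libraries. The exact Poisson 95% intervals of these counts run from 4.12 to 27.2 reads and all overlap. The log2 fold change was 0.07 (SE 0.42), and a difference was not detectable at this depth. It turned to -0.16 with the date as a block. FAT2, which is known from skin and cerebellum, had 1 read in each library of 15 March and 0 in the other 3, and it was not tested. A count of 0 allows up to 3 reads, which is 0.141 to 0.153 CPM in the 3 libraries without a FAT2 read. The ligand paralog DCHS2 had 0 reads in all 5 libraries, with limits of 0.136 to 0.153 CPM.

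Among the CELSR genes, CELSR1, which organises skin and inner ear polarity, was at 13.4 and 14.3 CPM in strongly and 16.9, 16.7 and 20.7 CPM in weakly adherent cells. The groups did not overlap, and the log2 fold change was 0.39 (SE 0.13). With the date as a block CELSR1 was called as well (log2 fold change 0.44, SE 0.11). That fit leaves 1 residual degree of freedom, so its p-values rest mainly on spread pooled over all genes. It called 3 of 7 members higher (FAT1, FAT4 and CELSR1) and 0 lower, against 6.20% of all genes higher and 5.28% lower. Over all genes it called 1527, against 357 without the block.

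CELSR2 was at 22.9 and 23.0 CPM in strongly and 28, 27.2 and 26.0 CPM in weakly adherent cells. Its groups did not overlap either, but the step was small, with a log2 fold change of 0.24 (SE 0.09). Within dates the ratio was 1.23 (95% interval 1.08 to 1.38) and 1.13 (1.00 to 1.28). CELSR3, which guides axons together with CELSR2, was at 8.76 and 10.5 CPM in strongly and 10.5, 9.60 and 11.1 CPM in weakly adherent cells. The groups overlapped, and the log2 fold change was 0.11 (SE 0.14). Without the 6 March library of strongly adherent cells it was -0.016.

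In 4 of the 7 tested members (FAT1, FAT4, CELSR1 and CELSR2) the weakly adherent libraries all lay above the strongly adherent ones, and in 0 all below. Over all genes this held for 15.5% above and 14.5% below. Among the other 114 tested genes with coding sequences at least as long as that of CELSR2, the shortest of the members, 89 lay above without overlap and 2 below. The proportion between members also shifted: FAT1 had 7.97 and 8.89 times the reads of CELSR2 in strongly adherent libraries and 14.1, 14.3 and 14.8 times in weakly adherent ones. This ratio within a library does not depend on scaling between libraries. It takes no account of coding length, which is 13770 bases in FAT1 and 8769 bases in CELSR2. The ratio of FAT1 to FAT4 reads overlapped between the groups, at 4.72 and 4.59 against 5.5, 5.86 and 4.35.

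**Figure D2:**
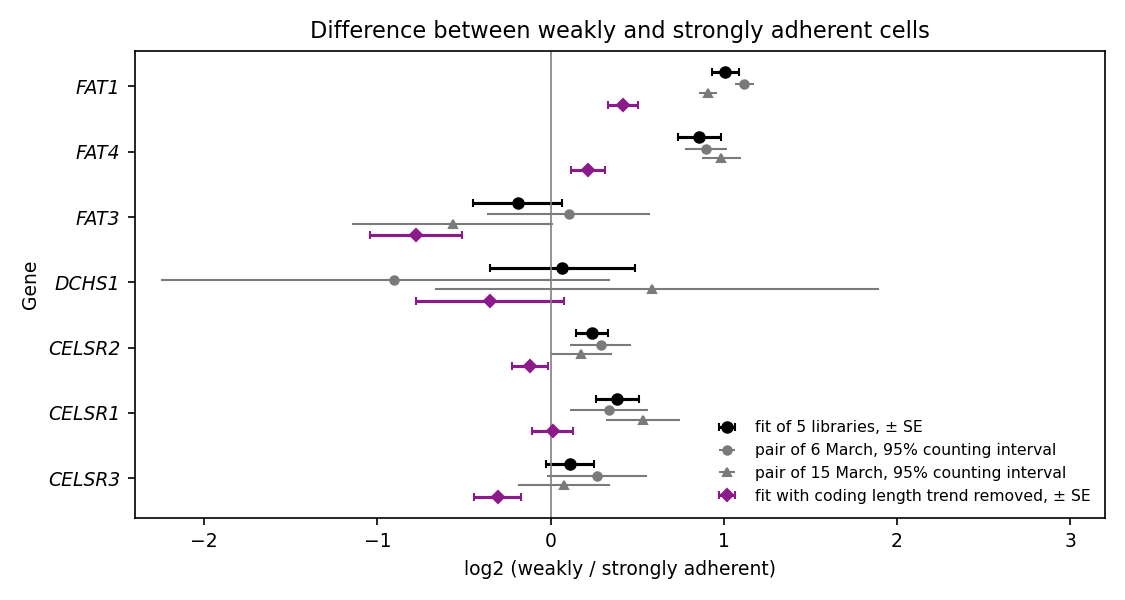
Log2 ratio of weakly over strongly adherent cells for the 7 tested members: the fit of 5 libraries with its SE, each date's pair with its 95% counting interval, and the fit with the coding length trend removed with its SE. FAT1 and FAT4 stand near 1 in the first fit and in both pairs and at 0.42 and 0.22 with the trend removed, while the pairs of FAT3 and DCHS1 point in opposite directions.

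All members have very long coding sequences, from 8769 bases in CELSR2 to 14943 bases in FAT4, and in these libraries long coding sequences went with a positive log2 fold change. FAT1 (13770 bases) and FAT3 (13671 bases) are nearly the same length and had log2 fold changes of 1.01 and -0.19. Among the other 32 tested genes with at least 13671 coding bases the median log2 fold change was 0.82, and edgeR called 19 higher and 0 lower. FAT4 (0.86) lay close to that median, FAT1 (1.01) lay above it and FAT3 (-0.19) lay below it. For the other 38 genes between 8769 and 9936 bases, the range of the CELSR genes and DCHS1, the median was 0.43 with 18 called higher and 0 lower. CELSR1 lay just below that median, and CELSR2, CELSR3 and DCHS1 lay further below. Ordered by log2 fold change among the 121 tested genes of at least 8769 coding bases, FAT1 took place 13, FAT4 place 30, CELSR1 place 83, CELSR2 place 97, CELSR3 place 105, DCHS1 place 108 and FAT3 place 116. Of these 121 genes, 9 were below 0.

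With each library's trend with coding length removed, FAT1 kept a log2 fold change of 0.42 (SE 0.09) and was called higher, as were 0.923% of all genes, while 1.11% were called lower. FAT4 was at 0.22 (SE 0.10), CELSR1 at 0.01 (SE 0.12) and CELSR2 at -0.12 (SE 0.11), and none of these was called. CELSR3 came to -0.31 (SE 0.13), DCHS1 to -0.35 (SE 0.43) and FAT3 to -0.78 (SE 0.27), also without a call. With the date as a block in addition, FAT1 (0.39) and FAT4 (0.27) were called higher and FAT3 (-0.81) lower, against 4.49% and 5.55% of all genes. The direction of CELSR2, CELSR3 and DCHS1 therefore depends on whether the trend is removed. The part of length in the members' differences was not tested further.

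**Figure D3:**
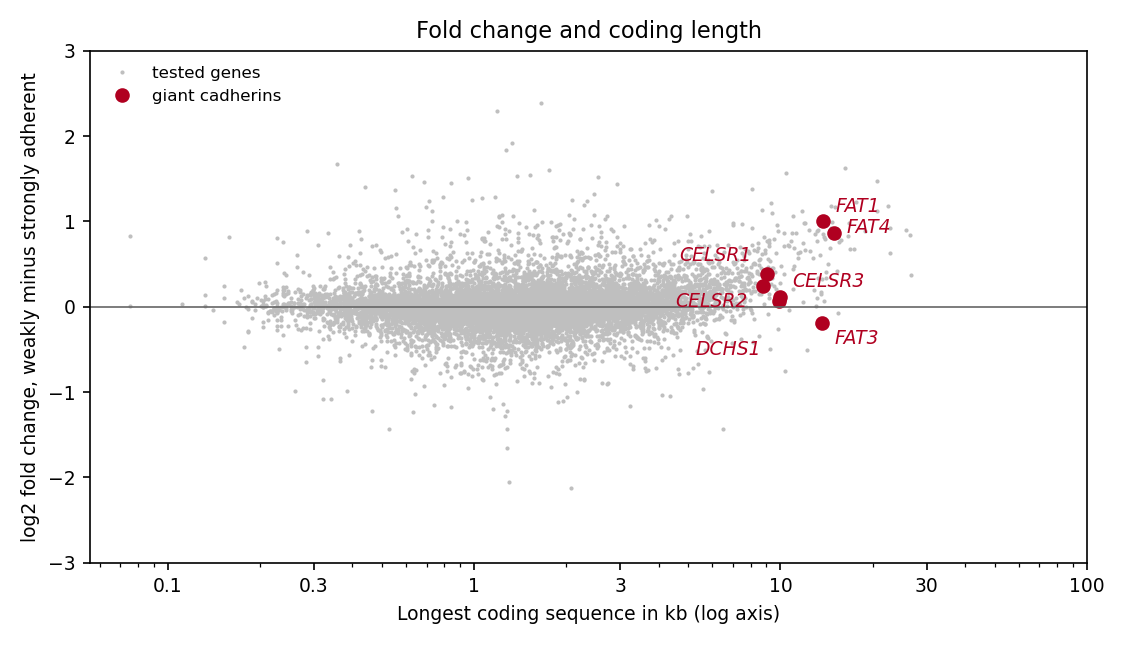
Log2 fold change, weakly minus strongly adherent, against the longest coding sequence in kb (log axis) for 12245 tested genes (grey) and the giant cadherins (red). FAT1 and FAT4 lie within the rise of the longest genes, the CELSR genes and DCHS1 between 0 and 0.39, and FAT3 below 0.

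A contrast that did not guide the choice of members is the one between dates. The 4 libraries of 6 and 15 March were compared with adhesion as a covariate. This leaves 1 residual degree of freedom, so here too p-values rest mainly on spread pooled over all genes. EdgeR called 1231 of 13249 genes (9.29%), 6.74% higher and 2.55% lower on 15 March. Of the 7 tested members 1 was called, FAT4, which was higher on 15 March in both groups (38.6 to 44.7 and 72.0 to 88.5 CPM). Its log2 fold change, 15 minus 6 March, was 0.25 (SE 0.08, edgeR BH-adjusted p = 0.015). The call ended in DESeq2 (adjusted p = 0.39, with 0 members and 203 genes in all called) and with the length trend removed (edgeR BH-adjusted p = 0.28). Over the 5 alternatives the adjusted p ran from 0.012 to 0.39. FAT3 had a log2 fold change of -0.59 (SE 0.22, edgeR BH-adjusted p = 0.061), which was -0.71 (edgeR BH-adjusted p = 0.016) with the length trend removed. In DESeq2 the FAT3 value was -0.61 with a larger SE of 0.43, and no adjusted p was given. FAT1 was at 0.06 (SE 0.07, edgeR BH-adjusted p = 0.68). The remaining members had edgeR BH-adjusted p of 0.26 (CELSR1), 0.79 (CELSR2), 0.48 (CELSR3) and 0.92 (DCHS1).

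The genes whose pattern over the 5 libraries was most like that of FAT1, the FAT or Dachsous member with most reads, were CEP350, PRKDC and DYNC2H1. Likeness is the root mean square difference of centred log2 CPM among 10475 genes that averaged 5 CPM or more, and it was 0.05, 0.08 and 0.09 for them. Their coding sequences have 9351, 12384 and 12942 bases. For CELSR2, which had most reads among the CELSR genes, they were SBNO1, BTN2A1 and SNUPN at 0.0084, 0.013 and 0.014, with coding sequences of 4179, 1581 and 1080 bases. These distances are the smallest of 10475 and lie far below the SE of the CELSR2 log2 fold change (0.09). Whether the same genes would come nearest in other libraries was not tested.

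Around the giant cadherins, 5 lists of related genes were compared between the adhesion groups: FAT and Dachsous partners, planar cell polarity genes, the Hippo pathway, other cadherins and other adhesion receptors of the GPCR class. Of their 87 tested genes edgeR called 2 higher and 2 lower, against 1.77% and 0.918% of all genes, and the median log2 fold change was 0.0030.

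None of the 14 tested partners of FAT and Dachsous proteins (of 17) was called by edgeR or by DESeq2. At an unadjusted p under 0.05 edgeR had 0 higher and 3 lower, against 1045 higher and 844 lower of all 13297 genes. The median log2 fold change of the 14 partners was 0.02. FJX1, the kinase that acts on both FAT and Dachsous repeats, is named for that role. It was at 92.5 and 87.7 CPM in strongly and 86.0, 78.4 and 74.7 CPM in weakly adherent cells, with a log2 fold change of -0.18 (SE 0.08, edgeR BH-adjusted p = 0.35). The smallest p belonged to EVL, an actin regulator of the Ena/VASP family that FAT1 can engage (-0.45, SE 0.16, edgeR BH-adjusted p = 0.18), and MPP5, a polarity scaffold (-0.20, SE 0.08, edgeR BH-adjusted p = 0.25). With the date as a block both were called lower (edgeR BH-adjusted p = 0.030 for EVL and 0.016 for MPP5), as were 5.28% of all genes.

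Of 23 tested planar cell polarity genes (of 27), edgeR called 1 higher and 0 lower, against 1.77% and 0.918% of all genes. Their median log2 fold change was 0.05. At an unadjusted p under 0.05 edgeR had 4 higher and 3 lower, against 1045 higher and 844 lower of all 13297 genes. VANGL1, a membrane protein of the core polarity complex that works with CELSR proteins, rose from 92.2 and 88.3 CPM to 119, 120 and 116 CPM. Its log2 fold change was 0.39 (SE 0.07, edgeR BH-adjusted p = 0.011), and the groups did not overlap. The call ended without either strongly adherent library (edgeR BH-adjusted p = 0.069 without 6 March and 0.096 without 15 March) or without the weakly adherent one of 12 March (0.057). SMURF2, a ubiquitin ligase that acts on polarity proteins, was at -0.24 (SE 0.07, edgeR BH-adjusted p = 0.097, or 0.011 with the date block). DESeq2 likewise called 1 higher and 0 lower, where it called 301 higher and 138 lower of all 13297 genes. With the block edgeR called 3 higher and 1 lower, against 6.20% and 5.28% of all genes.

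Of 23 tested Hippo pathway genes (of 24), edgeR called 1 higher and 2 lower, against 1.77% and 0.918% of all genes. Their median log2 fold change was -0.04. At an unadjusted p under 0.05 edgeR had 4 higher and 5 lower, against 1045 higher and 844 lower of all 13297 genes. FRMD6, a FERM protein that feeds into the Hippo kinases, fell from 260 and 251 CPM to 187, 170 and 175 CPM (log2 fold change -0.53, SE 0.07, edgeR BH-adjusted p = 0.0018). AMOTL2, which binds YAP, fell from 229 and 197 CPM to 165, 149 and 143 CPM (-0.48, SE 0.09, edgeR BH-adjusted p = 0.0095), and its call ended without the 6 March library of strongly adherent cells (0.14). The kinase TAOK1, named after its values were seen because it is the remaining call, rose from 72 and 95 CPM to 117, 135 and 138 CPM (0.64, SE 0.12, edgeR BH-adjusted p = 0.029). Its call ended without the 6 March library of strongly adherent cells (0.088) or those of weakly adherent cells of 12 (0.081) or 15 March (0.093). With the block 3 were called higher and 4 lower, against 6.20% and 5.28% of all genes. With the length trend removed 1 was called higher and 3 lower, against 0.923% and 1.11% of all genes. There WWC1 (edgeR BH-adjusted p = 0.047), named after its values were seen, joined FRMD6 and AMOTL2 as lower.

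Among other cadherins 13 of 50 had enough reads. At an unadjusted p under 0.05 edgeR had 0 higher and 3 lower, against 1045 higher and 844 lower of all 13297 genes. Neither edgeR nor DESeq2 called any of the 13, and their median log2 fold change was -0.01. The protocadherins PCDH7 (-0.67, SE 0.17, edgeR BH-adjusted p = 0.056) and PCDH1 (-0.32, SE 0.10, edgeR BH-adjusted p = 0.14) had the smallest p. Both were called lower with the date block (edgeR BH-adjusted p = 0.0041 and 0.0047), as were 5.28% of all genes. PCDH7 was also called lower with the length trend removed (edgeR BH-adjusted p = 0.044) and without a filter on low counts (0.029), and over its 12 alternatives the adjusted p ran from 0.0027 to 0.33.

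Other adhesion receptors of the GPCR class, the family the CELSR genes belong to, had 14 of 28 genes tested. At an unadjusted p under 0.05 edgeR had 2 higher and 1 lower, against 1045 higher and 844 lower of all 13297 genes. EdgeR called 0 of the 14, and DESeq2 called 1 higher. That gene was CD97, a receptor for the complement regulator CD55, at 396 and 351 CPM in strongly and 480, 482 and 432 CPM in weakly adherent cells. Its log2 fold change was 0.32 (SE 0.08, edgeR BH-adjusted p = 0.069, DESeq2 adjusted p = 0.031). EdgeR called CD97 higher with the date block (BH-adjusted p = 0.00017), and over its 10 alternatives the adjusted p ran from 0.00017 to 0.46. GPR98, another giant receptor with a coding sequence of 18918 bases, was at 1.13 and 1.14 CPM against 2.23, 2.15 and 1.91 CPM. Its log2 fold change was 0.88 (SE 0.25, edgeR BH-adjusted p = 0.094, or 0.032 with the date block). With the length trend removed it was 0.11 (edgeR BH-adjusted p = 0.96), and 0.042 (edgeR BH-adjusted p = 0.97) with the block in addition. The block also called 2 genes of this list lower, named after their values were seen: LPHN2 (-0.41, edgeR BH-adjusted p = 0.00082) and GPR116 (-0.21, edgeR BH-adjusted p = 0.015). Of all genes the fit with the block called 6.20% higher and 5.28% lower.

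**Figure D4:**
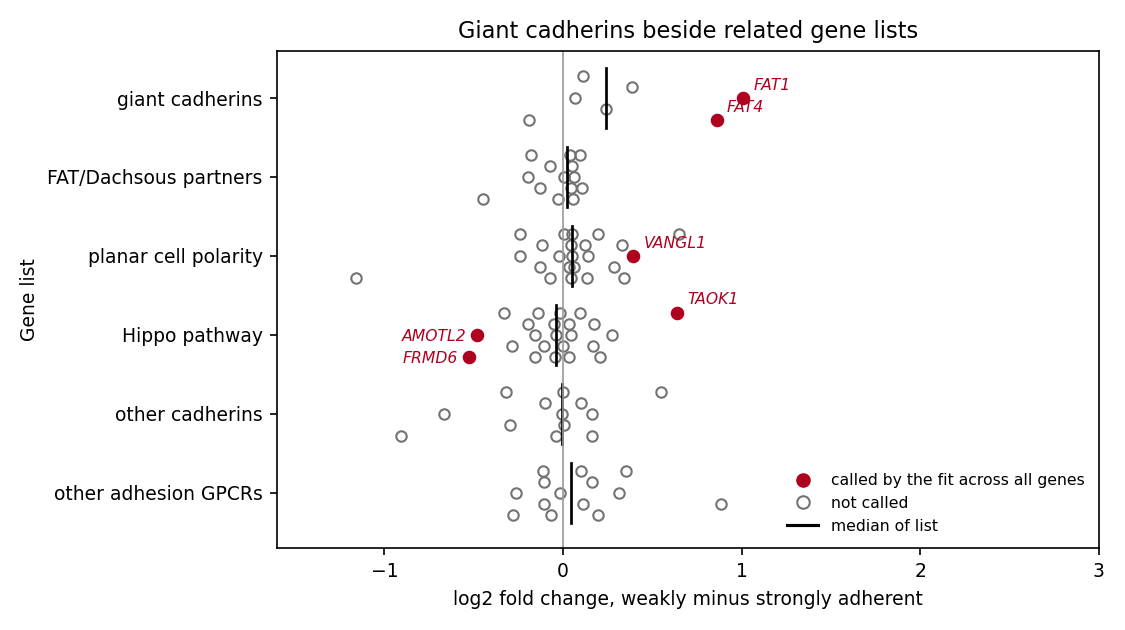
Log2 fold changes, weakly minus strongly adherent, of the tested giant cadherins and of 5 lists of related genes, one circle per gene, with a bar at each median. Filled circles are genes that edgeR called over all genes: FAT1 and FAT4, VANGL1, TAOK1, AMOTL2 and FRMD6; the medians of the 5 related lists lie between -0.04 and 0.05.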

How the data were processed

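RNA of weakly and strongly adherent MDA-MB-231 cells was made into stranded libraries and sequenced as 50 bp single-end reads, per the labels' protocols. Per the submitters' processing notes, cutadapt, FastQC, STAR, HTSeq and DESeq2 were used with the build hg19. Versions, gene annotation and whether counting used strand: not given in the sources used here. The authors deposited raw counts per gene symbol and log2 values. When checked, those log2 values deposited by the authors came to 1 plus the scaled count on a log2 scale, within 0.0152 reads, and were not used further. The counts have 25382 gene rows and 5 HTSeq summary rows, which were set aside. Reads in no gene made up 8.08% to 9.98% of those and the gene counts together.

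Samples were grouped by the adhesion label. The main test was edgeR 4.0.16 in R 4.3.3 (TMM, filterByExpr with a minimum count of 10, robust quasi-likelihood F test, Benjamini-Hochberg adjusted p under 0.05), fitted to all 5 libraries without covariates, with 3 residual degrees of freedom. SE follows from the fold change and F. The date in the titles pairs libraries across groups, and paired deviations from group means correlated at 0.335 (6 March) and 0.204 (15 March). The weakly adherent library of 12 March, which has no partner, correlated at 0.156 with the strongly adherent one of 15 March. Deviations within a group cancel out, so these values are not independent of each other. They cannot show by themselves that libraries of the same date belong together. Replicates differed by more than sampling noise, with chi-square over degrees of freedom at 7.56 to 12.7. Coding lengths (longest per gene symbol, GENCODE release 29, another build) were known for 92.1% of tested genes, and the trend removed was a natural spline with 5 degrees of freedom per library. Alternatives were DESeq2 1.42.0, its size factors, other filters, the date block, the length trend and each library left out. The edgeR fits without and with the date block were tested on a single draw of simulated counts, with known changes and no difference between dates. Both recovered most changed genes in the right direction. In both the share of false calls was above the threshold, in this draw more so with the block.

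The members and lists were chosen with earlier results of these data known. By rule the genes named are all members, from each list the 2 tested genes with the smallest p, and the 3 nearest in pattern to FAT1 and to CELSR2. Outside that rule, FJX1 and DCHS2 are named for their role, and TAOK1, WWC1, LPHN2 and GPR116 were named after their values were seen. Log2 CPM used a prior count of 2. Figures were drawn with matplotlib 3.10.9.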

Additional observations from a re-analysis of the deposited data

Results flagged for a closer look

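The pairs of 6 and 15 March moved in opposite directions for DCHS1 and FAT3, a difference that was not tested. The log2 ratio of weakly over strongly adherent libraries was -0.90 on 6 March and 0.59 on 15 March for DCHS1, at 9 to 17 reads per library. For FAT3 it was 0.11 and -0.56, at 44 to 81 reads. In each of these 4 pairs the 95% counting interval of the ratio includes 1.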

How the results depend on the processing

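FAT1 was called higher under all 12 alternatives. Over all genes 357 were called, and 536 without a filter on low counts, 1527 with the date as replicate block and 1229 with the block and the coding length trend removed. With the trend alone removed the split was 113 higher and 136 lower, against 235 and 122. Leaving out a library gave 116 to 341 calls: 116 without the 6 March library of strongly adherent cells, 214 without that of 15 March and 194 without the weakly adherent one of 12 March. Of the members, 2 were called, and 1 with the length trend removed. Leaving out a library gave 1 to 2. Of the genes on the 5 lists, 4 were called, 7 without a filter, 19 with the replicate block, 15 with the block and the trend removed, and 1 to 5 with a library left out: 1 without the 6 March library of strongly adherent cells and 2 without the weakly adherent one of 12 March. Between dates, DESeq2 called 203 genes and 0 members against 1231 and 1 in edgeR, and the split of 893 higher and 338 lower became 682 and 673 with the trend removed. Apart from those named, the block changed no call on a member. DCHS1 turned to -0.16 (block), -0.35 (trend removed), -0.60 (both), -0.28 (without the 15 March library of strongly adherent cells) and -0.17 (without the weakly adherent one of 12 March). CELSR2 turned to -0.12 and -0.14, and CELSR3 to -0.31 and -0.27, with the trend removed without and with the block. With a library left out, CELSR3 ran from -0.016 (without 6 March of the strongly adherent cells) to 0.26, FAT3 from -0.46 to 0.028 (without 15 March of the weakly adherent cells) and DCHS1 up to 0.52. Between dates FAT1 turned to -0.062 with the trend removed. The causes were not tested. Depth limits DCHS1 and FAT2, and DESeq2's size factors moved the median of all genes by -0.0026.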
